A study of Mus musculus with 84 samples.

Results

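The genes described here make glucose in the liver, store it as glycogen, break down amino acids and turn the freed nitrogen into urea. Of 42 listed genes, 40 had a median count above 8 over all mice and are the members, 13 of them in a glucose branch and 27 in a nitrogen branch. They were taken from 10415 genes that passed the same limit, among 17695 genes with a row in the count table. The listed genes left out were Pfkfb1, a bifunctional enzyme of glycolysis control with a median count of 8, and Bhmt, which remethylates homocysteine and had a median count of 2.05. The lowest members inside the limit were Ppargc1a, with a median count of 102.5, and Ahcy, with 107.4.

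Liver RNA of 84 male B6C3F1 mice was measured, with 7 mice in each of 12 groups. From 8 weeks of age the mice ate AIN-93G diet for 7 days, either plain (control) or holding an organophosphate pesticide (OPP), a class of compounds that blocks acetylcholinesterase. Fenthion (FT) was given at 2.5, 5, 10 or 20 ppm, methidathion (MT) at 10, 25, 50 or 100 ppm and parathion (PT) at 20, 40 or 80 ppm. FT and MT are dimethyl esters and PT is a diethyl ester. RNA came from archived frozen liver. The mice were run in 3 experimental blocks, and each group had 2 mice in block 1, 3 in block 3 and 2 in block 4. The labels name EA or EPA as the RNA isolator. The RNA of 2 control mice and of none of the 80 ppm PT mice was isolated by EPA.

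Expression was read by TempO-Seq, in which pairs of short detector oligos are joined on their target mRNA and counted by sequencing. Total counts ran from 6950381 to 15300589 per mouse, and 3 counts correspond to between 0.196 and 0.432 CPM, counts scaled to a common library total. Levels below are in CPM, and they compare mice for 1 gene, not genes with each other, since detector oligos differ in efficiency. Fold changes are from edgeR's quasi-likelihood test with experimental block and RNA isolator as terms, fitted over all 84 mice and 10415 genes. Cages, not single mice, were assigned to the diets, while the fit counts each mouse as independent. A member is said to have risen or fallen where the Benjamini-Hochberg adjusted p was below 0.05. In bulk liver RNA, fewer cells of a type and less RNA per cell cannot be told apart.

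As background, gluconeogenesis builds glucose from lactate, glycerol and the carbon skeletons of amino acids, and it is switched on by glucagon and glucocorticoids and held back by insulin. Amino acids give up their nitrogen through transaminases, glutaminase and amino acid lyases. The urea cycle then fixes ammonia as carbamoyl phosphate, joins it to ornithine, takes a further nitrogen from aspartate and releases urea. Both arms run mainly in periportal hepatocytes, while glutamine synthetase sits in a thin pericentral layer. Methionine breakdown passes through S-adenosylmethionine, homocysteine and cystathionine and ends in cysteine.

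Between 80 ppm PT and control, 18 of 40 members rose and 3 fell, 52.5% in all, against 18.6% of all genes tested, of which 9.75% rose and 8.89% fell. The median log2 fold change was 0.60 over the members and 0.01 over all genes tested. The nitrogen branch held 17 of the 21 called genes, with 14 that rose and 3 that fell among 27. In the glucose branch 4 of 13 rose and none fell, and its median log2 fold change of 0.61 was close to the 0.59 of the nitrogen branch. A change of at least 2-fold was reached by 7 members, against 3.30% of all genes. The highest group median of the 12 groups was in 80 ppm PT for 23 of 40 members. The lowest was in 20 ppm PT for 15 and in control for 12, and shares of all genes were not counted. The 80 ppm PT mice of block 1 held the largest values for most of these genes. Without these 2 mice 10 members were still called, all of them among the 21, with 7 that rose and 3 that fell, against 8.50% of all genes. A fit to the control and PT mice alone called 11 members, against 9.57% of all genes. DESeq2 called 23 members, against 19.4% of all genes, and limma called 18, against 22.5%. With library totals in place of TMM scaling 23 rose and 1 fell. There the median of all genes was shifted by 0.12, and the share of all genes called was not counted.

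**Figure D1:**
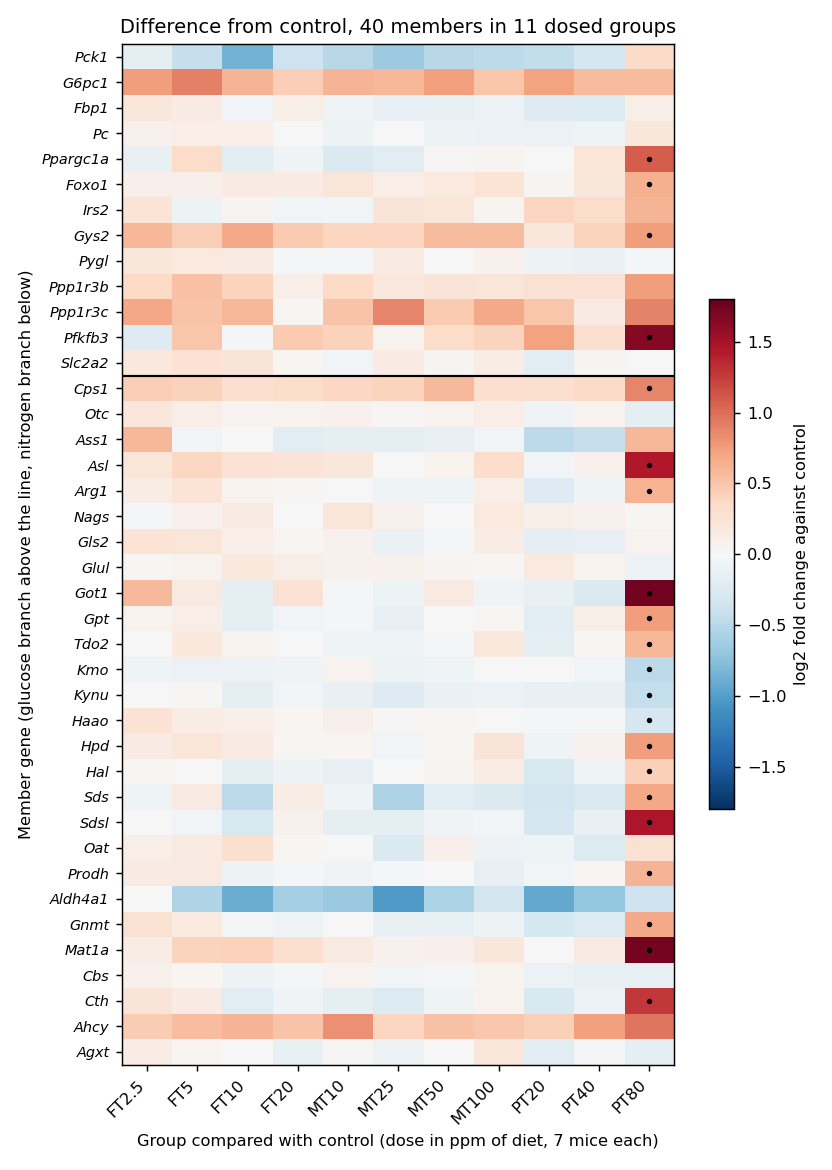
Log2 fold change against control of the 40 members (rows, glucose branch above the line and nitrogen branch below) in the 11 dosed groups (columns, dose in ppm of diet, 7 mice each). Black dots mark an adjusted p below 0.05, and all 21 of them stand in the 80 ppm PT column.

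The rate-setting enzymes of gluconeogenesis did not pass the test against control. Pck1, cytosolic phosphoenolpyruvate carboxykinase, stood at 199 to 839 CPM in control mice (median 424) and at 399 to 894 CPM in 80 ppm PT mice (median 631). Its groups overlapped, and the log2 fold change was 0.34 ± 0.32 (SE, n = 7 per group, edgeR adjusted p = 0.51). G6pc1, the catalytic subunit of glucose-6-phosphatase, had a log2 fold change of 0.57 ± 0.39 (edgeR adjusted p = 0.34). Fbp1, fructose-1,6-bisphosphatase, had 0.11 ± 0.11, and Pc, pyruvate carboxylase, had 0.20 ± 0.09. The liver glucose transporter Slc2a2 had a log2 fold change of 0.01, with a 95% interval from -0.25 to 0.26.

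Of 3 genes that control glucose output 2 rose. Ppargc1a encodes a transcriptional coactivator of the fasting programme and lies on chromosome 5, 51611592 to 51725068 (GRCm39), on the minus strand. It was at 7.63 to 11.5 CPM in control mice (median 8.54). In 80 ppm PT it was at 59.8 and 27.01 CPM in block 1, 18.2, 11.6 and 11.8 in block 3, and 8.20 and 14.97 in block 4. Only 1 of the 7 dosed mice lay inside the control range, and the log2 fold change was 1.10 ± 0.21 (edgeR adjusted p = 5.12e-05). Foxo1, a forkhead factor that insulin keeps out of the nucleus, was at 5.17 to 42.1 CPM in control mice and 8.36 to 92.5 CPM in 80 ppm PT mice. It rose by a log2 fold change of 0.64 ± 0.24 with an edgeR adjusted p of 0.048, next to the limit, and the groups overlapped. Without the block 1 PT mice it was 0.14 and not called. Irs2, an insulin receptor substrate, had a log2 fold change of 0.61 ± 0.29 and did not pass (edgeR adjusted p = 0.14).

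Pfkfb3 makes and breaks down fructose-2,6-bisphosphate, the metabolite that favours glycolysis over gluconeogenesis. Control mice stood at 5.20 to 25.9 CPM (median 15.7). With 80 ppm PT the values were 104.6 and 100.3 CPM in block 1, 8.80, 20.8 and 47.7 in block 3, and 42.5 and 79.01 in block 4. Thus 5 of 7 were above every control mouse, and Pfkfb3 rose by a log2 fold change of 1.65 ± 0.38 (edgeR adjusted p = 0.0010).

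Among the glycogen genes, Gys2, liver glycogen synthase, rose. It was at 79.6 to 299 CPM in control mice (median 156) and at 21.5 to 528 CPM in 80 ppm PT mice (median 338), the lowest of them in block 3. Its log2 fold change was 0.76 ± 0.25 (edgeR adjusted p = 0.026). Without the block 1 PT mice it was 0.77 and not called (edgeR adjusted p = 0.066). The glycogen-targeting phosphatase subunits Ppp1r3b and Ppp1r3c had log2 fold changes of 0.75 and 0.89 with edgeR adjusted p values of 0.0504 and 0.059. The liver glycogen phosphorylase Pygl stood at -0.03 on the log2 scale, with a 95% interval from -0.26 to 0.20.

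In the urea cycle 3 of 6 members rose and none fell. Asl, argininosuccinate lyase, splits argininosuccinate into arginine and fumarate and lies on chromosome 5, 130040099 to 130058088 (GRCm39). Control mice held 396 to 679 CPM (median 545). With 80 ppm PT they held 5050 and 3186 CPM in block 1, 1156, 803 and 1427 in block 3, and 654.5 and 660.5 in block 4. The block 1 and block 3 mice were all above the control range and the block 4 mice inside it, and Asl rose by a log2 fold change of 1.44 ± 0.20 (edgeR adjusted p = 2.19e-07).

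Arg1, arginase, which releases urea, was at 2491 to 3650 CPM in control mice (median 2746) and at 2289 to 11487 CPM in 80 ppm PT mice (median 4621). It rose by 0.63 ± 0.17 on the log2 scale (edgeR adjusted p = 0.0062), with overlapping groups. Cps1, carbamoyl-phosphate synthetase, the entry step, was at 7.42 to 26.6 CPM in control and 15.3 to 58.7 CPM in 80 ppm PT mice. It rose by 0.88 ± 0.23 (edgeR adjusted p = 0.0041). Arg1 was at 0.19 and Cps1 at 0.51 without the block 1 PT mice, and neither was called. Ass1, which makes argininosuccinate from citrulline and aspartate, ran from 659.9 to 1874 CPM in control mice and from 586.5 to 3796 CPM in 80 ppm PT mice. With a log2 fold change of 0.59 ± 0.27 it did not pass (edgeR adjusted p = 0.12). Otc, ornithine transcarbamylase, had -0.17 ± 0.11, and Nags, which makes the activator of Cps1, had 0.02 ± 0.10.

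Got1 showed the largest log2 fold change of the members. It encodes cytosolic aspartate aminotransferase, which makes the aspartate that feeds the urea cycle, and lies on chromosome 19, 43488188 to 43513674 (GRCm39), on the minus strand. Control mice held 15.97 to 45.4 CPM (median 27.6). Dosed mice held 541 and 164 CPM in block 1, 34.5, 17.1 and 51.5 in block 3, and 13.9 and 12.5 in block 4. Thus 3 dosed mice were above every control mouse, 2 were below every control mouse and 2 were inside the control range. The pooled log2 fold change was 1.74 ± 0.40 (edgeR adjusted p = 0.00081), and without the block 1 PT mice it was -0.23.

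Promoters are shown for Got1, the member with the highest change, and for 3 of the 4 tryptophan genes, of which 1 rose and 2 fell. Bases are the 250 before the RefSeq start in GRCm38.p6, which is not the build of the gene positions given above. They are printed 5′ to 3′ on the gene's strand, with capitals at matches on either strand to 3 motifs. These are the box CCAAT, the core promoter box spelled TATAAA, and the letters TGTTCT, which form part of the element bound by the glucocorticoid receptor. The Got1 sequence is chr19:43524606-43524855, minus strand.
Got1: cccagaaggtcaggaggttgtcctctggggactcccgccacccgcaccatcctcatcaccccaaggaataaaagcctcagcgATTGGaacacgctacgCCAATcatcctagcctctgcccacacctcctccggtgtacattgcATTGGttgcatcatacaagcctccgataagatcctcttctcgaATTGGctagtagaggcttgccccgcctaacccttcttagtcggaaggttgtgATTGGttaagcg

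The Got1 sequence holds 5 matches to CCAAT, a box bound by the general factor NF-Y, the nearest starting 12 bases before the start. At least 5 matches stood in 70 of 32851 promoters of this length, or 0.213%, and at least 1 match in 33.8%. CCAAT was added to the motifs after the sequences had been read. Of 40 members 27 had a promoter in the table and 15 of these 27 held CCAAT. A member was counted if any of its promoters matched, while the shares are of single promoters, so they are unlike measures. The full element TGACGTCA, bound by CREB, stood in 1.55% of all promoters and in 0 of the 27, and the forkhead motif TGTTTAC stood in 3.17% and in 0 of the 27. TGACG, the shorter form of the CREB element, stood in 17.8% of all promoters and in 4 of the 27, those of Pck1, Ppargc1a, Pygl and Pfkfb3. Longer motifs of the glucocorticoid receptor, C/EBP, C/EBP with ATF, HNF4 and HNF1 stood in 0 of the 27. A match here is a string of letters, not a measured site.

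Gpt, alanine aminotransferase, which hands alanine nitrogen to glutamate and leaves pyruvate, was at 88.7 to 160 CPM in control mice (median 118). Dosed mice of that group were at 427.5 and 314 CPM in block 1, 264, 142 and 170 in block 3, and 127 and 152 in block 4. Gpt rose by 0.75 ± 0.13 on the log2 scale (edgeR adjusted p = 8.55e-06), and 4 of the 7 dosed mice were above every control mouse. Gls2, liver glutaminase, had a log2 fold change of 0.06 ± 0.15, and Glul, glutamine synthetase, had -0.10 ± 0.10.

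In tryptophan breakdown 1 of 4 members rose and 3 fell. Tdo2 opens the ring of tryptophan and commits it to the kynurenine pathway, and Kmo, Kynu and Haao act after it, on the way to quinolinate and NAD. Tdo2 rose in 80 ppm PT mice, from 1255 to 2139 CPM in control (median 1557) to 1542 to 5580 CPM (median 2101), with a log2 fold change of 0.59 ± 0.14 (edgeR adjusted p = 0.00090). Without the block 1 PT mice Tdo2 was at 0.20 and not called (edgeR adjusted p = 0.33). The later 3 enzymes fell, and of these Kmo alone was called with library totals or with limma.

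Kmo, kynurenine monooxygenase, was at 598 to 742 CPM in control mice (median 644). In 80 ppm PT mice it was at 406 and 580.0 CPM in block 1 and 493.4, 576 and 545 in block 3. It was at 584 and 591 CPM in block 4. Every 80 ppm PT mouse was thus below every control mouse, while mice of the other dosed groups ran from 455 to 845 CPM. The log2 fold change was -0.47 ± 0.08 (edgeR adjusted p = 1.83e-05). Kynu, kynureninase, was at 141 to 225 CPM in control and 119 to 185 CPM in 80 ppm PT mice, and it fell by 0.43 on the log2 scale (edgeR adjusted p = 0.013). Haao, which opens the ring of 3-hydroxyanthranilate, was at 913 to 1422 CPM in control and 767 to 1118 CPM in 80 ppm PT mice, and it fell by 0.30 (edgeR adjusted p = 0.0020). Kynu and Haao ranges overlapped between groups. Control and 80 ppm PT mice did not overlap for 2 of 40 members, Kmo and Mat1a, against 1.44% of all genes. Mat1a stood wholly above control, as did 0.903% of all genes, and Kmo wholly below, as did 0.538%.

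**Figure D2:**
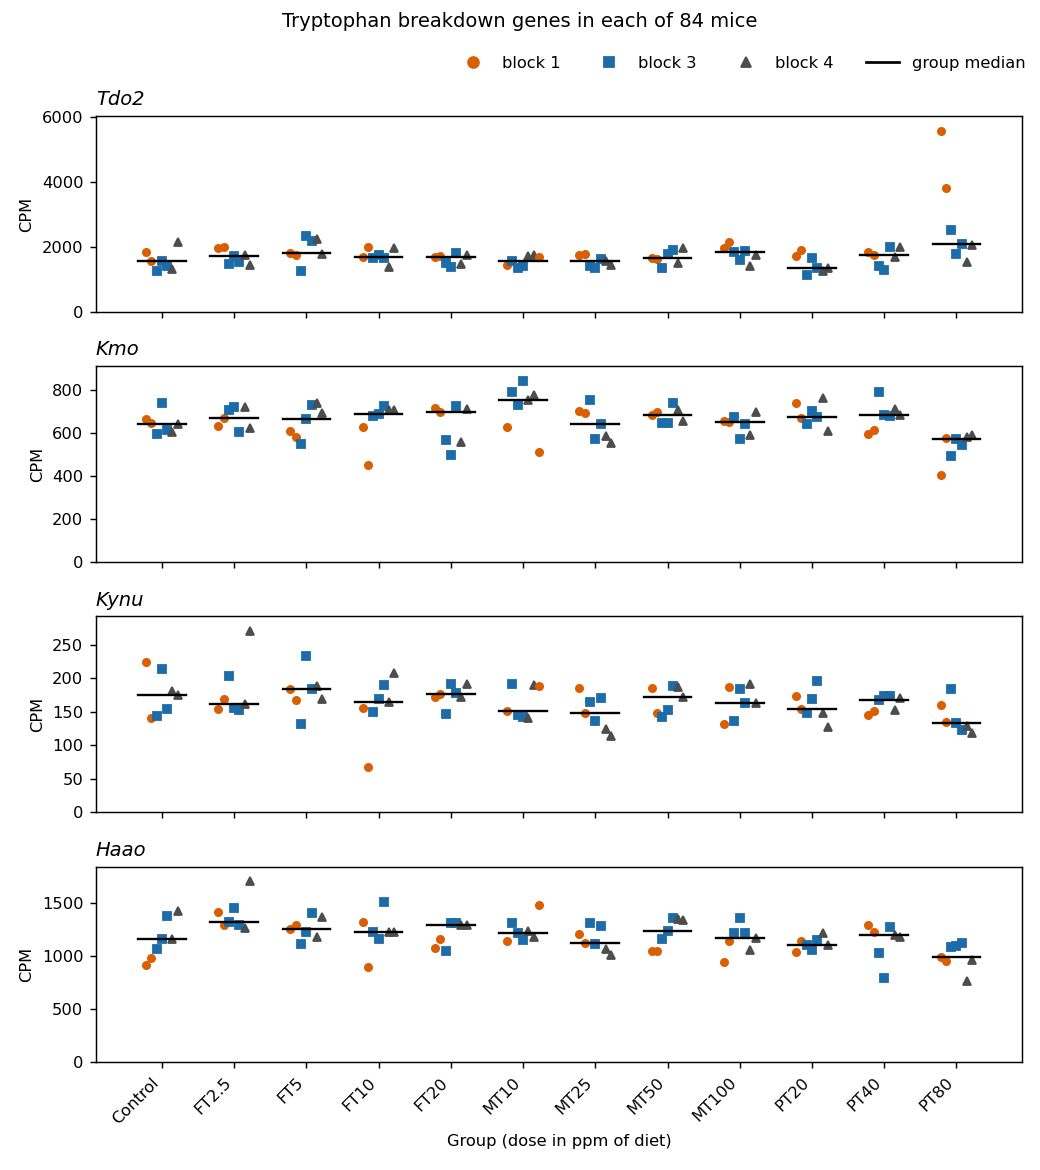
CPM of Tdo2, Kmo, Kynu and Haao (panels, vertical axes in CPM from 0) in each of the 84 mice, by group (horizontal axis, dose in ppm of diet). Symbols give the block and black lines the group median. The 80 ppm PT mice of block 1 stand highest for Tdo2 at 5580 and 3823 CPM, and all 7 mice of that group are below the control mice for Kmo.

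The sequences of the 3 tryptophan genes found in the promoter table are given for comparison. They are chr3:81975729-81975978 on the minus strand for Tdo2, chr1:175631943-175632192 on the plus strand for Kmo and chr17:83846791-83847040 on the minus strand for Haao. Tdo2 and Haao were chosen after their values were seen.
Tdo2: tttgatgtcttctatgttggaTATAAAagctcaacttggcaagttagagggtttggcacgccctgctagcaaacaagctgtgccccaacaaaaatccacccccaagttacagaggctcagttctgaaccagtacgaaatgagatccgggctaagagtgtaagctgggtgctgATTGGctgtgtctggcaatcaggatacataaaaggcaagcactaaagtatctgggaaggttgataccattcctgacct
Kmo: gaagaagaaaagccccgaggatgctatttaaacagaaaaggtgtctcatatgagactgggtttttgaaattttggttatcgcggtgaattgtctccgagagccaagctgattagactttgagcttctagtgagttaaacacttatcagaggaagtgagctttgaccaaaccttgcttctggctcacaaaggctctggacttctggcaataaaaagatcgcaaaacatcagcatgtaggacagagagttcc
Haao: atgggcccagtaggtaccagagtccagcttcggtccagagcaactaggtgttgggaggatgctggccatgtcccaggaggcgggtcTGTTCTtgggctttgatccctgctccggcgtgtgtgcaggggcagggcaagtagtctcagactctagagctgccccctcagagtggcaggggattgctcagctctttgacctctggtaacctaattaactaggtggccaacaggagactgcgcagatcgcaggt

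Tdo2 held 1 match to TATAAA, 229 bases before its start, and 1 to CCAAT, 78 bases before. TATAAA stood in 12.4% of all promoters. Haao held TGTTCT once, 164 bases before its start, a string found in 16.1% of all promoters, and Kmo held none of these letters. The GC content was 46.4% for Tdo2, 42.8% for Kmo and 58.4% for Haao.

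Both members for tyrosine and histidine breakdown rose. Among other genes of these pathways Hgd, Gstz1, Fah, Uroc1, Amdhd1 and Ftcd were not called, with log2 fold changes from -0.06 to 0.14. Tat, given below, was called. Hpd, 4-hydroxyphenylpyruvate dioxygenase, was at 3550 to 5822 CPM in control mice (median 4416) and 5236 to 12701 CPM in 80 ppm PT mice (median 7379). The block 1 mice held 12701 and 12402 CPM, and the block 4 mice, at 5236 and 5728, were inside the control range. Its log2 fold change was 0.75 ± 0.11 (edgeR adjusted p = 1.04e-06). Hal, histidine ammonia-lyase, rose by 0.43 ± 0.13 (edgeR adjusted p = 0.011), or by 0.36 and not called without the block 1 PT mice, and here the highest of the dosed mice, at 830 CPM, was in block 3.

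Of the 5 genes for serine, ornithine and proline, 3 rose. Sds, serine dehydratase, which turns serine to pyruvate, was at 53.1 to 115 CPM in control and 49.6 to 496 CPM in 80 ppm PT mice, with a log2 fold change of 0.69 ± 0.25 (edgeR adjusted p = 0.039). Its neighbour and relative Sdsl was at 11.3 to 16.4 CPM in control mice. In 80 ppm PT it was at 210 and 28.9 CPM in block 1, 23.3, 13.9 and 19.5 in block 3, and 9.06 and 10.6 in block 4. Sdsl rose by 1.45 ± 0.30 (edgeR adjusted p = 0.00024), and the highest mouse stood far above the next one. Sdsl was at 0.015 and Sds at 0.24 without the block 1 PT mice, and neither was called.

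Prodh, proline dehydrogenase, was at 130 to 183 CPM in control and 91.1 to 573 CPM in 80 ppm PT mice and rose by 0.61 ± 0.17 (edgeR adjusted p = 0.0078). It was at 0.13 and not called without the block 1 PT mice. Oat, ornithine aminotransferase, had a log2 fold change of 0.27 ± 0.17. Aldh4a1, the next enzyme of proline breakdown, had -0.37 ± 0.47, and its counts ran from 0.637 to 852 over the 84 mice. These estimated counts are uncertain.

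Of the 5 methionine genes 3 rose. Mat1a makes S-adenosylmethionine in the adult liver and lies on chromosome 14, 40826926 to 40846384 (GRCm39), on the plus strand. Control mice held 834 to 1468 CPM (median 1029). Mice on 80 ppm PT held 11558 and 6407 CPM in block 1, 2846, 1983 and 3692 in block 3, and 2319 and 1890 in block 4, all above every control mouse. Mat1a rose by a log2 fold change of 1.72 ± 0.19, with the smallest adjusted p of the members (edgeR, 1.06e-10). In the other 10 dosed groups its medians lay between 1154 and 1527 CPM. Single mice of those groups reached 2378 CPM, and 4 of the 80 ppm PT mice were above that.

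Cth, cystathionine gamma-lyase, which yields cysteine, was at 79.9 to 185 CPM in control mice (median 122). Mice on 80 ppm PT held 846 and 405 CPM in block 1, 434, 210 and 227 in block 3, and 104 and 119 in block 4, the last 2 inside the control range. Cth rose by 1.28 ± 0.22 (edgeR adjusted p = 1.41e-05). Gnmt, which uses up S-adenosylmethionine by methylating glycine, was at 247 to 565 CPM in control and 274 to 1342 CPM in 80 ppm PT mice and rose by 0.69 ± 0.19 (edgeR adjusted p = 0.0061). Gnmt was at 0.23 and not called without the block 1 PT mice. Cbs, the enzyme before Cth, had -0.13 ± 0.08. Ahcy had 0.96 ± 0.37 (edgeR adjusted p = 0.060), with estimated counts from 7.36e-05 to 572 over the 84 mice, and is uncertain. Agxt, which detoxifies glyoxylate with alanine, had -0.16 ± 0.11.

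**Figure D3:**
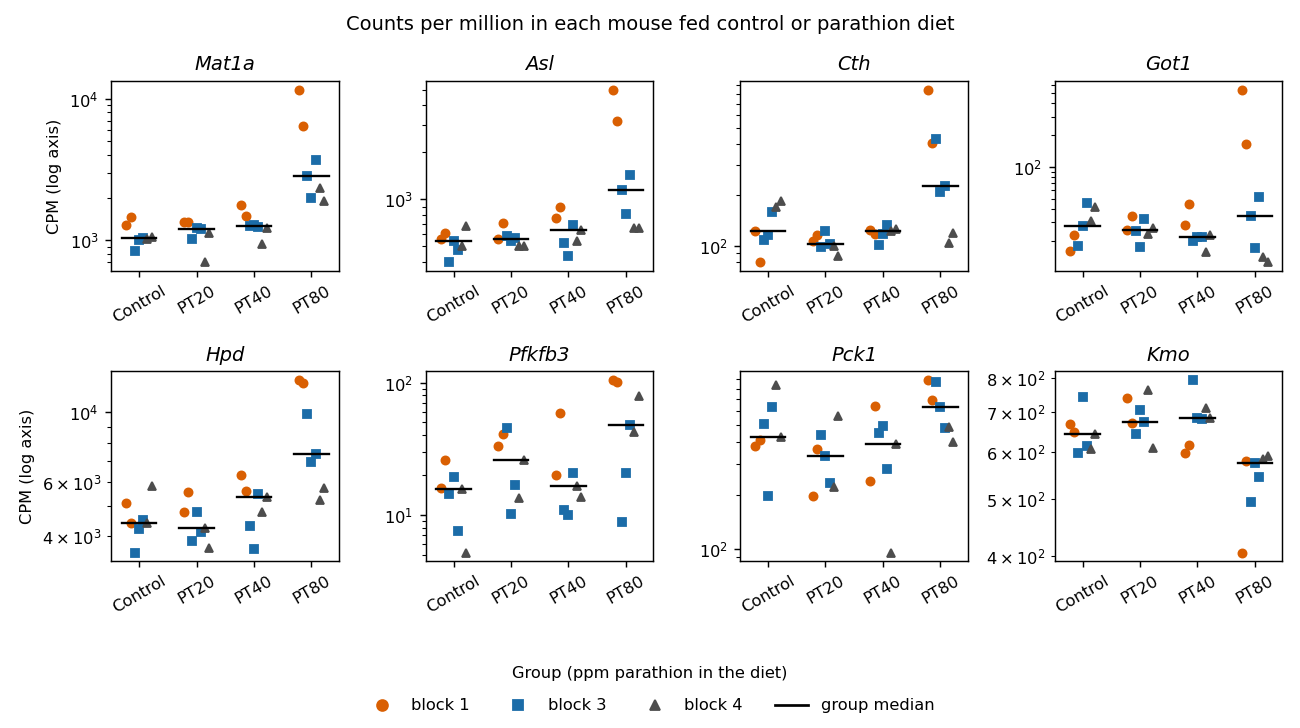
CPM (log vertical axes) of 8 members in each mouse fed control diet or diet with 20, 40 or 80 ppm PT. Symbols give the block and black lines the group median. In the 80 ppm PT group the block 1 mice (circles) are highest for Mat1a, Asl, Got1, Hpd and Pfkfb3, and the block 4 mice (triangles) fall near or inside the control range for Asl, Cth, Hpd and Pck1.

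The mice of the 80 ppm PT group were far from alike. Replicate numbers are given here in accession order and only name a mouse. Replicate 1 of block 1 held the highest value of its group for 15 of the 18 members that rose, and replicate 2, also of block 1, for 2 more. In replicate 1, 30 of 40 members were above every control mouse, against 35.9% of all genes. The count was 25 in replicate 2, against 22.9% of all genes. In block 3 it was 22, 10 and 20, against 23.5%, 16.6% and 15.3%. In the block 4 mice it was 2 and 5, against 12.1% and 16%, while 11 and 12 members were below every control mouse, against 14.4% and 9.37%.

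In a joint fit that lets the PT difference vary by block, the median log2 fold change over all 40 members was 1.26 in block 1, 0.26 in block 3 and -0.24 in block 4, where 26 of 40 were below 0. For the 18 members that rose, which the pooled comparison had picked, it was 1.49 in block 1, 0.57 in block 3 and 0.11 in block 4. It was above 0 for 18, 17 and 10 of the 18. In this fit an adjusted p below 0.05 was reached by 28 of 40 members in block 1, 25 higher and 3 lower, against 30.9% of all genes. The counts were 7 in block 3, 6 higher and 1 lower, against 6.71%, and 8 in block 4, against 3.66%. Of these 8, Mat1a, Pfkfb3 and Gys2 were higher and Got1, Ass1, Gls2, Haao and Cbs lower. The difference between blocks itself passed the test (edgeR, adjusted p below 0.05) for 23 of 40 members and 15 of the 21 called, against 19.5% of all genes.

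Got1 had the widest contrast, with log2 fold changes of 3.52 ± 0.30 in block 1, 0.21 ± 0.29 in block 3 and -1.24 ± 0.38 in block 4. Ass1, not called in the pooled comparison, had 1.51 ± 0.31, 0.53 ± 0.28 and -1.17 ± 0.36. Mat1a was above control in every block, at 2.68 ± 0.18, 1.14 ± 0.17 and 1.04 ± 0.19, with edgeR adjusted p values of 4.46e-20, 2.80e-06 and 0.00053. Of the 18 members that rose, 9 were above control in every block in the joint fit, namely Mat1a, Asl, Pfkfb3, Ppargc1a, Cps1, Gys2, Hpd, Gpt and Tdo2. With block 4 fitted alone Asl was at -0.058, Cps1 at -0.072 and Tdo2 at -0.14.

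The 3 members that fell were below control in every block in the joint fit. Kmo stood at -0.51, -0.53 and -0.32 on the log2 scale in blocks 1, 3 and 4, Kynu at -0.30, -0.42 and -0.59, and Haao at -0.26, -0.22 and -0.49. With block 1 fitted alone Haao was at -0.05 ± 0.14, and its mean there was 972 CPM in dosed and 944 CPM in control mice. No difference between blocks passed the test for any of these 3. Without the block 1 PT mice they were still called, at -0.45, -0.49 and -0.32, together with Mat1a at 1.10, Pfkfb3 at 1.49, Asl at 0.61, Ppargc1a at 0.61, Cth at 0.60, Gpt at 0.52 and Hpd at 0.51.

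**Figure D4:**
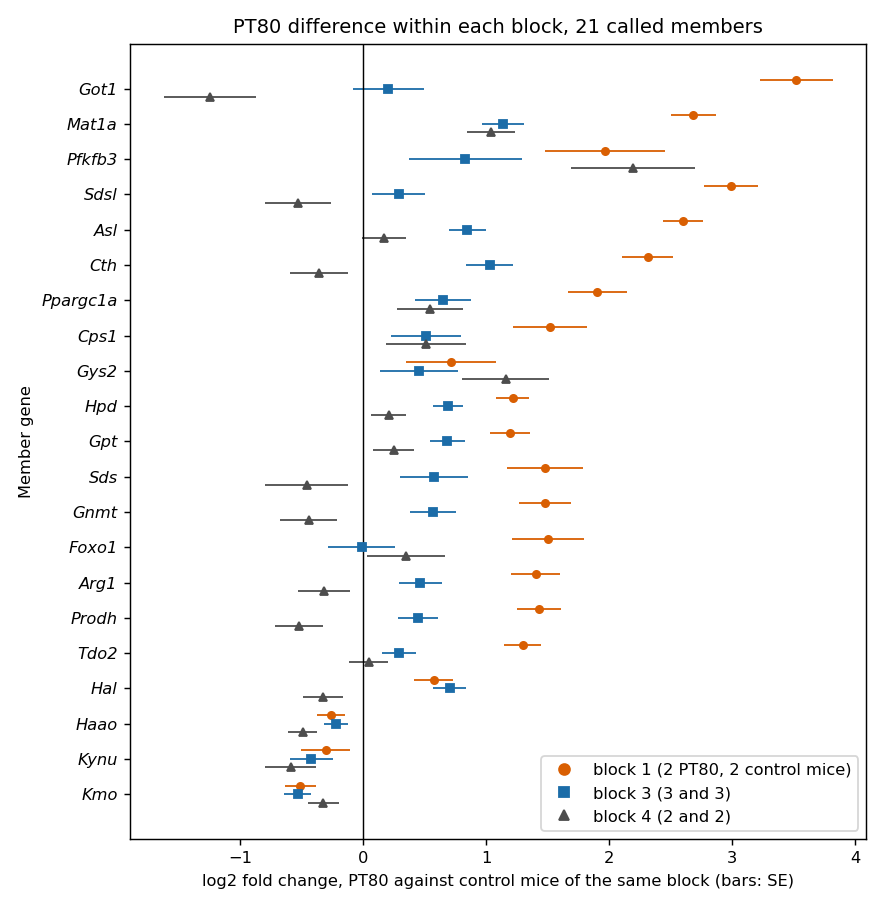
Log2 fold change (horizontal axis) of 80 ppm PT against control mice of the same block for the 21 called members (rows), with the SE as bars. Circles are block 1 (2 dosed and 2 control mice), squares block 3 (3 and 3) and triangles block 4 (2 and 2). Got1 runs from -1.24 in block 4 to 3.52 in block 1, while Kmo, Kynu and Haao are below 0 in every block of this joint fit.

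Summed markers of liver cell types were set beside these values, by group. Summed Kupffer cell markers (6 genes, Timd4 at a median of 2 counts) were at 74.7 to 159 CPM in control mice and 14.2 to 100.0 CPM in 80 ppm PT mice, with the lowest sum in replicate 1. Of the 5 tested 3 fell, against 8.89% of all genes. Cholangiocyte markers (5 genes, Epcam at a median of 0 counts) ran from 56.9 to 130 CPM in control and from 12.8 to 61.3 CPM in 80 ppm PT mice, again lowest in replicate 1, and their sum was almost all Spp1. Lymphocyte and neutrophil markers ran from 24.4 to 53.9 CPM in control and from 10.8 to 39.9 CPM in 80 ppm PT mice, and haemoglobin genes from 28.3 to 151 and from 15.3 to 51.4 CPM. Endothelial markers were at 104 to 140 and 109 to 150 CPM, and stellate markers at 81.8 to 119 and 87.8 to 133 CPM. All of these ranges overlapped between the groups. All 3 haemoglobin genes tested fell, as did 1 of 3 lymphocyte and neutrophil genes and the 1 cholangiocyte gene tested, Spp1. Of 6 endothelial genes 0 were called, of 5 stellate genes 1 rose, and of 7 hepatocyte genes 1 rose and 1 fell. Among all genes 9.75% rose. Hepatocyte markers summed to 49254 to 61399 CPM in control and 46929 to 62973 CPM in 80 ppm PT mice, and are defining genes of liver tissue. Exocrine pancreas markers stayed at or below 9.61 CPM in both groups. The part of these cell markers in the members' differences was not tested.

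Summed genes that mark the zones of the liver lobule were compared as well. The summed pericentral genes (8 genes, mostly Cyp2e1) were at 7102 to 14823 CPM in control and 15937 to 26187 CPM in 80 ppm PT mice, with no overlap. Of the 8 tested 2 rose, Cyp2e1 and Slc1a2. The median log2 fold change of the 8 was 0.33, and Lgr5 at -0.63 and Gulo at -0.51 were not called. Periportal genes (9 in the table) were at 500 to 1171 and 549 to 1803 CPM, and of 7 tested 1 rose and 2 fell. Of all genes 9.75% rose and 8.89% fell. The part of zonation in the members' differences was not tested.

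Set against the lower doses of the same pesticide, with no control mouse in the contrast, 80 ppm PT gave 22 members that rose and 3 that fell, 62.5% of 40, against 25.7% of all genes, of which 13.4% rose and 12.4% fell. The contrast shares the 80 ppm PT mice with the one above, so the calls are not independent, and 20 members were called in both. Got1 rose by 1.94 ± 0.32, Sdsl by 1.67 ± 0.24, Mat1a by 1.65 ± 0.15, Cth by 1.47 ± 0.18 and Asl by 1.42 ± 0.16 on the log2 scale (edgeR adjusted p between 6.78e-14 and 2.66e-06). Called here and not against control were Ass1 at 1.04, Pck1 at 0.72, Oat at 0.43, Fbp1 at 0.35 and Pc at 0.29. Thus 3 of the 4 gluconeogenic enzymes rose in this contrast, though none was called against control. The 20 ppm PT group held the lowest median of the 12 groups for 15 of 40 members. Its medians for Pck1, Fbp1 and Pc were 331, 691 and 212 CPM, beside 424, 782 and 237 CPM in control. Gys2 was called against control and not here. Kmo, Kynu and Haao fell again, by 0.44, 0.30 and 0.28. Without the block 1 PT mice 11 members were called, against 11.7% of all genes.

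**Figure D5:**
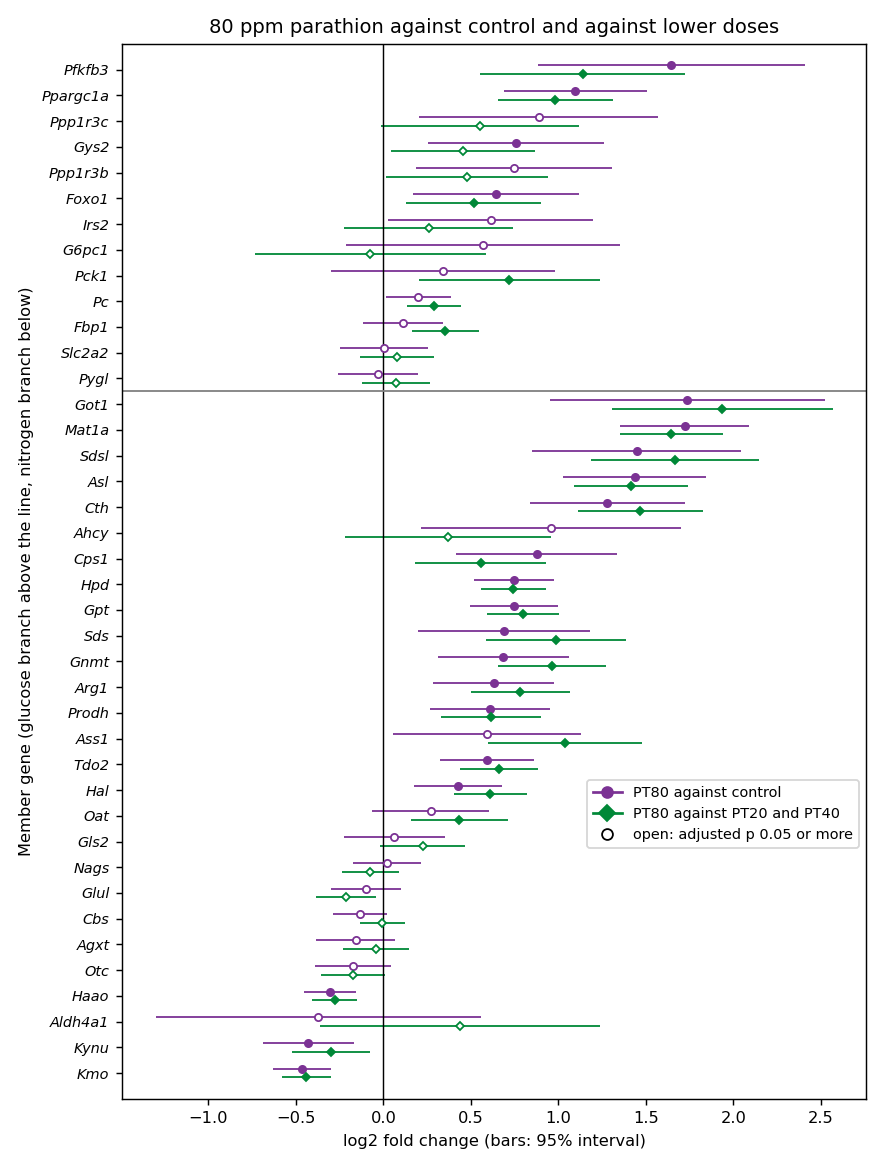
Log2 fold change with 95% interval (horizontal axis) of each of 40 members (rows) for 80 ppm PT against control (circles) and against the 20 and 40 ppm PT mice (diamonds). Filled symbols have an adjusted p below 0.05. Got1, Mat1a, Sdsl, Asl and Cth stand farthest right in the nitrogen branch, and Kmo lies lowest at -0.47 against control.

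No member was called in any of the other 10 comparisons with control by edgeR, DESeq2 or limma. For FT, edgeR gave an unadjusted p below 0.05 for 4 members at 2.5 ppm (10.7% of all genes), 3 at 5 ppm (7.59%), 3 at 10 ppm (17.7%) and 0 at 20 ppm (3.98%). For MT it did so for 2 at 10 ppm (9.97%), 4 at 25 ppm (5.79%), 2 at 50 ppm (3.99%) and 3 at 100 ppm (13.7%), and for PT for 2 at 20 ppm (5.91%) and 1 at 40 ppm (8.51%). With adjusted p the shares of all genes called were 0.0096%, 0%, 1.57% and 0% for the FT doses in that order. They were 0%, 0%, 0.0096% and 0.0768% for the MT doses, and 0.0096% and 0% for the lower PT doses. The median half-width of a member's 95% interval was 0.34 to 0.35 on the log2 scale in these groups, and it differed between genes. At 10 ppm FT, Pck1 was at 157 to 415 CPM (median 242) beside 199 to 839 CPM in control, with a log2 fold change of -0.85 ± 0.32 (edgeR adjusted p = 0.14). Gys2 at 10 ppm FT had 0.69 ± 0.25 (edgeR adjusted p = 0.13). Haao at 2.5 ppm FT had 0.26 ± 0.08 (edgeR adjusted p = 0.19), and G6pc1 at 5 ppm FT had 0.91 ± 0.39 (edgeR adjusted p = 0.56). At 40 ppm PT the member log2 fold changes ran from -0.69 to 0.74 with a median of -0.01, and at 20 ppm PT from -0.93 to 0.73 with a median of -0.08. Since all 11 comparisons share the same 7 control mice, their values are not independent of each other.

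Within 1 pesticide, the test over control and all doses called 21 members for PT, against 19.6% of all genes, and 0 for FT and for MT, against 0.0768% and 0.0864%. At an unadjusted p below 0.05 it gave 2 members for FT (14.8% of all genes) and 0 for MT (9.21%). Over all 12 groups it called 20, against 20.3%. The highest dose of FT or MT against its own lower doses also called 0 members, against 0% and 0.0288% of all genes, with 3 of 40 at an unadjusted p below 0.05 in each (7.35% and 8.45% of all genes).

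Matched doses allowed 2 comparisons between pesticides, with p values adjusted over all genes in each. The dimethyl esters FT and MT were compared at 10 ppm and called 0 of 40 members, with 4 at an unadjusted p below 0.05 (7.65% of all genes), and 0% of all genes. The member log2 differences ran from -0.46 to 0.30 with a median half-width of the 95% interval of 0.34. FT at 20 ppm against the diethyl ester PT at 20 ppm also called 0 of 40, with 1 at an unadjusted p below 0.05 (3.40% of all genes), and 0% of all genes. The differences ran from -0.49 to 0.46. The gene with that p was Fbp1, at 0.35 higher in FT on the log2 scale with a 95% interval from 0.12 to 0.58 (edgeR adjusted p = 1.00). For Mat1a and Got1 no FT or MT group had a dose of 80 ppm to set beside PT, and the values at 100 ppm MT were 974 to 1611 CPM for Mat1a and 21.5 to 38.03 CPM for Got1.

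Between experimental blocks 25 of 40 members were called, 62.5%, against 39.9% of all genes, led by Gpt (edgeR adjusted p = 5.67e-10) and Sds (edgeR adjusted p = 1.24e-09). Between RNA isolators 8 of 40 were called, against 38.7% of all genes, and all 8 were lower with EPA. Kmo was lower by -0.45 and Nags by -0.49 on the log2 scale. With EA mice alone, 21 members were still called at 80 ppm PT, and the share of all genes was not counted for that fit.

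Other genes of the same pathways came from lists chosen with earlier results of these data known. They were also called more often than the 18.6% of all genes at 80 ppm PT. Some rose and some fell, but the shares that fell were near the 8.89% of all genes that fell. Of all genes 9.75% rose. Of 37 other glucose pathway genes tested 8 rose and 4 fell, with a median log2 fold change of 0.02. The highest were Igfbp1 at 3.00, a secreted binder of insulin-like growth factors with medians of 17.7 CPM in control and 26.4 CPM in 80 ppm PT mice, Slc37a4 at 0.99, the glucose-6-phosphate transporter, and Klf15 at 0.71, a factor of the fasting liver. The lowest were Pfkfb4 at -1.07, a relative of Pfkfb3, Ldha at -0.57, a lactate dehydrogenase subunit, and Slc16a1 at -0.51, a lactate transporter.

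Of 62 other nitrogen pathway genes tested 15 rose and 5 fell, with a median of 0.09. The highest were Tat at 1.57, the tyrosine aminotransferase ahead of Hpd, Afmid at 1.05, which acts between Tdo2 and Kmo, and Cdo1 at 0.77, which oxidises cysteine. Among those that fell were Aspg at -0.38, an asparaginase, and Qdpr at -0.37, which regenerates tetrahydrobiopterin. The median of Tat was 4.98 CPM in control and 4.45 CPM in 80 ppm PT mice, so its fold change and its medians differ in direction. Afmid medians were 233 and 589 CPM.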

How the data were processed

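The authors trimmed TempO-Seq reads, aligned them to mm39 with STAR and quantified them to Ensembl transcripts with the expectation-maximisation counter of Partek Flow, and they deposited estimated counts per gene for 84 mouse livers. Of all counts 17.9% were not whole, and of the counts of the 42 listed genes 42.0%, held by 21 of these genes. Counts were rounded before testing. They also deposited a score per gene, log2(CPM + 1) adjusted for block and RNA isolator. Among these scores 11 mice had values identical to those of another mouse of their group, so it served only as an alternative.

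Symbols came from GENCODE by Ensembl identifier. edgeR 4.0.16 (TMM, glmQLFit, glmQLFTest) was run in R 4.3.3 on 10415 genes with a median count above 8, with group, block and isolator as terms. Simulated data for 80 ppm PT against control had 200 of 10415 genes changed. In these edgeR recovered 97 of 100 genes at a log2 fold change of 2 and 88 of 100 at 1, with 8 false calls. The simulation had no block or isolator effect, the same spread in all groups and the same change in every 80 ppm PT mouse. It therefore does not give the rate of false calls in the real 80 ppm PT group. DESeq2 1.42.0 and limma 3.58.1 (pseudocount 1) were alternatives, and limma made 69 false calls there. Total counts ranged from 6950381 to 15300589, and precision at low values is limited by counting. The most alike mice of 1 group still differed by 7.93 times the sampling variance.

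Members and lists were chosen with earlier results of these data known. Values are given for members with an adjusted p below 0.05 against control, with ranges over mice for the 16 largest changes of at least 1.5-fold, and Tdo2, Kmo, Kynu, Haao and uncalled neighbours were added after their values were seen. The lists of other genes are named by the 3 highest and 3 lowest called, of which 1 is not reported here. Promoters follow the 2 highest and 2 lowest members, of which Got1 and Kmo were in the RefSeq table.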

Additional observations from a re-analysis of the deposited data

Results flagged for a closer look

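For 15 of the 21 members called at 80 ppm PT, the difference from control varied between the experimental blocks (edgeR, test of the block by group term over all genes). Adjusted p values were 1.38e-15 for Sdsl, 1.69e-14 for Got1, 4.24e-14 for Asl, 6.80e-10 for Cth, 2.26e-08 for Prodh, 4.93e-08 for Mat1a, 1.34e-06 for Tdo2, 3.18e-06 for Gnmt, 4.09e-06 for Arg1, 0.00014 for Hal, 0.00014 for Hpd, 0.00061 for Ppargc1a, 0.0017 for Sds, 0.0025 for Gpt and 0.0026 for Foxo1. The largest difference in that fit was in block 1 for 15 of the 18 members that rose, the exceptions being Hal, Gys2 and Pfkfb3.

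A single mouse stood apart from its group of 7 in 3 of 42 sets of values examined, each for 1 gene in 1 group. The limit flags about 1 set in 20 by chance where sets are independent. These sets share mice, and the 3 genes had been called on the same values, so no comparison with chance is drawn. Each time the mouse was replicate 1 of 80 ppm PT, in block 1. It held 210 CPM of Sdsl, 541 CPM of Got1 and 59.8 CPM of Ppargc1a. The sets did not cover all members in all 12 groups. Outside them, replicate 7 of 2.5 ppm FT held 5577 CPM of Ass1, beside a group median of 1224 CPM. The same mouse held 1092 CPM of Pck1, beside a group median of 341 CPM.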

How the results depend on the processing

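No paired analysis was possible because the replicate numbers were given here in accession order and pair no mice; the block in the labels was a term of the fit instead. The count of 21 members called at 80 ppm PT stayed within 1.5 times its value (18 to 24) under several settings. These were DESeq2 size factors, library totals, no filter on low counts, the DESeq2 test and limma. It also did so with EA mice alone, no block or isolator term, and block 1 alone. The share of all genes was 17.8% in block 1 alone, 19.4% with DESeq2 and 22.5% with limma. It was not counted for the other settings.

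Fitting only control and PT mice gave 11 (8 higher, 2 glucose, 9 nitrogen), and 12 over control and PT doses. Block 3 alone gave 8, against 4.38% of all genes (7 higher, 1 lower, 0 glucose, 8 nitrogen) and block 4 alone 5, against 1.02% (1 higher, 2 glucose, 3 nitrogen). Without the 80 ppm PT mice of block 1 there were 10 (7 higher, 2 glucose, 8 nitrogen), and in blocks 3 and 4 only 7, against 7.11% (5 higher, 1 glucose, 6 nitrogen); these were chosen after seeing the data, as were the fits without 1 mouse. Of the 3 members that fell, 1 was called with library totals, 1 with limma and 0 in block 1 alone. Against lower PT doses the 25 became 14 in block 3 alone and 3 in block 4 alone, with shares of all genes not counted. The 25 became 11 without the block 1 PT mice, against 11.7% of all genes. In blocks 3 and 4 only the count was 16, against 12.9%. At 20 ppm FT against lower FT doses block 3 alone called 1, Ppp1r3c at -1.61. Library totals called 7 glucose members and shifted the median of all genes by 0.12 on the log2 scale, with 23 members higher and 1 lower (95.8% higher, against 85.7% with TMM).

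Leaving out 1 dosed or control mouse gave 15 to 24 called members, 12 to 21 higher, 2 to 3 lower, 2 to 6 in the glucose branch and 12 to 18 in the nitrogen branch. The glucose count of 2 was without 80 ppm PT replicate 2, and the total of 15 without replicate 1. Against lower PT doses the range was 19 to 26, and shares of all genes were not counted for these fits.

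A one-way F test on the authors' adjusted values passed 31 members for FT, 39 for MT and 32 for PT, against 68.9%, 79.4% and 64.6% of all genes. With a 2-fold limit it passed 5, 4 and 9, against 9.93%, 7.90% and 9.39%. These values carry no allowance for the fitted block and isolator terms.

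Reversed in block 4 alone were Got1 at -1.48, Gnmt at -0.92, Sds at -0.72, Sdsl at -0.63, Arg1 at -0.61, Prodh at -0.59, Cth at -0.59, Hal at -0.47, Tdo2 at -0.14, Cps1 at -0.072 and Asl at -0.058. Reversed elsewhere were Foxo1 at -0.36 and Got1 at -0.020 in block 3 alone, Got1 at -0.46, Foxo1 at -0.15 and Sdsl at -0.061 in blocks 3 and 4 only, and Got1 at -0.23 without the block 1 PT mice. The cause was not tested. Mice shared cages and cages were assigned to the diets, but the labels do not say which mice shared a cage. The p values count each mouse as independent, so they do not measure how a difference repeats over cages. With 2 or 3 mice per block and group the spread within a block is poorly known.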
